A study of Mus musculus with 16 samples.

Results

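The pyruvate dehydrogenase complex of the mitochondrion, the kinases that switch it off and a phosphatase that switches it on were followed in the left ventricle of mice 14 days after an operation that raised the load on the heart. The members were 10 genes: Pdha1, Pdhb, Dlat, Dld and Pdhx of the complex, the kinases Pdk1, Pdk2, Pdk3 and Pdk4, and the phosphatase Pdp1. A probe set was a member when the platform annotation gave it exactly 1 gene symbol and that symbol was one of the 10. This took 13 of the 22690 probe sets, for 8 genes. Pdp1 and Pdhx had no such probe set and were not analysed here, so the comparison with a phosphatase could not be made. Of the 13 probe sets, 8 belonged to 4 subunit genes and 5 to 4 kinase genes.

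Each of the 4 groups, male TAC, male sham, female TAC and female sham, held 4 C57BL/6J mice aged 12 to 14 weeks, with 1 mouse per array. TAC is transverse aortic constriction, a narrowing of the aortic arch against which the left ventricle must pump. The TAC mice were anaesthetised with ketamine and isoflurane. Shams had the operation without the constriction, the labels give no anaesthetic for them, and all 4 groups received buprenorphine after the chest was opened. The labels give no genetic change, and TAC was examined at 1 time only. The unit is the deposited signal, a linear brightness per probe set that had already been scaled to a common level on every array. Differences are means of log2(signal + 16), TAC minus sham, with the standard error (SE) from limma and p-values adjusted over all 13576 probe sets that passed a limit on low signals. A gene is said to rise or fall where the adjusted p was below 0.05. Levels of different probe sets were not set against each other, since each binds its target with its own strength.

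The complex turns pyruvate, the end product of glycolysis, into acetyl-CoA for the citric acid cycle, and so sets how much carbohydrate the mitochondria burn. Its first enzyme removes carbon dioxide from pyruvate and is built from alpha subunits (Pdha1) and beta subunits (Pdhb). Its core (Dlat) passes the acetyl group on through a swinging lipoyl arm, and Dld reoxidises that arm and is shared with related complexes. The kinases phosphorylate the alpha subunit and stop the enzyme, and the phosphatases reverse this. The adult heart draws most of its energy from fatty acids, and Pdk4 is known as the kinase that rises with fasting and with activation of the lipid sensor PPAR-alpha.

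Promoter windows are shown for 3 members that fell together, Pdk4, Dld and Pdha1, to set the sequences of members that moved together side by side. They come from RefSeq (GRCm38.p6), run 5′ to 3′ on the minus strand, and hold 250 bases before and 50 after the annotated start. They lie at chr6:5496229-5496528 for Pdk4, chr12:31351422-31351721 for Dld and chrX:160138381-160138680 for Pdha1. Capitals mark each CG pair.
Pdk4: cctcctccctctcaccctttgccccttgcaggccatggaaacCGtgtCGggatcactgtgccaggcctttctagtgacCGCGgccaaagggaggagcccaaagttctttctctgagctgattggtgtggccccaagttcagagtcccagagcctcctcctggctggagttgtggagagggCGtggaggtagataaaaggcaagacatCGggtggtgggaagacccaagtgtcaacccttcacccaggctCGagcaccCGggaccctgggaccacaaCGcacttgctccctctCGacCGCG
Dld: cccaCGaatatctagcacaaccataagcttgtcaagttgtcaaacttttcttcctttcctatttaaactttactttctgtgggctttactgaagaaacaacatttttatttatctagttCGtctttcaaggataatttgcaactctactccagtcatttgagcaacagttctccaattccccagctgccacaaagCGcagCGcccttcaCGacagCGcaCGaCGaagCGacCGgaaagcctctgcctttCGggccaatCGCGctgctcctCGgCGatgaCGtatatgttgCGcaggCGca
Pdha1: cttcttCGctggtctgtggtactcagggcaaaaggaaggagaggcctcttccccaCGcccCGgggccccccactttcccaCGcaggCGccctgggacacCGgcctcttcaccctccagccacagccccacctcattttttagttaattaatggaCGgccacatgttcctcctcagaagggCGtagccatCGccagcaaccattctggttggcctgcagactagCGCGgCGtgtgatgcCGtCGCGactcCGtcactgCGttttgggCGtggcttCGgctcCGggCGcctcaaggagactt
The Pdk4 window held 12 CG pairs, the Dld window 18 and the Pdha1 window 21, and the median over all 32851 RefSeq windows of 300 bases was 7. RefSeq gave windows for 9 members, 11 windows in all, and only the second Pdk1 window, with 2 pairs, was below that median. The other subunit windows held 18 (Dlat), 24 (Pdhb) and 28 (Pdhx) pairs. The nuclear receptor core motif AGGTCA was searched on both strands and lay in 0 of the 11 windows, against 16.3% of all windows. The longer AAGGTCA, which contains that motif and is bound by the ERR receptors, was likewise in 0 of 11, against 4.72% of all windows. The forkhead motif TGTTTAC was in 0 of 11, against 3.65%. This says only that these letters are absent from these windows, and sequence farther from the start was not searched.

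The labels held on the arrays. Xist, which is transcribed from the inactive X chromosome, was at least 2816 on every female array and at most 393.2 on every male array. The load markers Nppa (12095 to 39484 in TAC mice, 2958 to 6215 in shams) and Myh7 (5172 to 30050.1 in TAC mice, 790.5 to 1717 in shams) did not overlap between the operations. Array profiles correlated at 0.927 to 0.958 within groups. RNA measures also moved with the operation. The Gapdh 3′ to 5′ signal ratio is a measure of intact transcripts, and a higher ratio means that fewer are intact. It was 1.004 to 1.16 in male TAC mice and 0.837 to 0.921 in male shams. In females it was 0.958 to 1.03 with TAC and 0.785 to 0.918 in shams. This ratio did not overlap between TAC and sham in either sex. The 5′ signal of 18S rRNA averaged 10.34 ± 1.89 on a log2 scale in male TAC mice and 13.35 ± 0.50 in male shams, and 10.2 ± 0.60 in female TAC mice and 11.96 ± 0.91 in female shams (SD, n = 4 each). Male TAC array 5 stood apart at 13.16, against at most 9.57 on the other male TAC arrays.

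Of 8 heart muscle cell markers, 6 fell with TAC averaged over the sexes and 0 rose, and their summed signal was 237803 to 284703 in male TAC mice and 277302 to 324961 in male shams, and 206981 to 264539 in female TAC mice and 285586 to 311484 in female shams. Over all 8272 genes, with 1 probe set per gene, 13.4% rose and 13.1% fell in that average. Among 6 fibroblast markers, 3 rose and 0 fell, with sums of 18944 to 35687 in male TAC mice and 13742 to 16108 in male shams, and of 17471 to 26967 in female TAC mice and 14971 to 16709 in female shams. The 3 were Col1a1 (1.44), Col1a2 (1.91) and Postn (2.52), while Dcn (-0.10), Lum (0.13) and Pdgfra (0.08) did not pass the test. Among 5 macrophage markers, 3 rose and 0 fell, with sums of 8138 to 8851 in male TAC mice and 5609.7 to 7898 in male shams, and of 6868 to 10355.7 in female TAC mice and 5696 to 6156 in female shams. Of 5 endothelial markers 0 passed the test, and of 3 smooth muscle markers above the limit 1 rose. The atrial marker Myl4 and the fat cell marker Cidea rose, while the fat cell markers Adipoq (5.3 to 97.9) and Ucp1 (7.9 to 33.6) and all 4 skeletal muscle markers were below the limit. No listed marker was at 0 on any array. The part of cell makeup in the results that follow was not tested. In bulk tissue, fewer cells of a type and less RNA per cell cannot be told apart.

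With TAC, 8 of the 12 member probe sets that passed the signal limit changed in males, 1 higher and 7 lower, and 17.8% of all probe sets changed there (8.07% higher and 9.77% lower). In females 7 of 12 changed, 1 higher and 6 lower, where 15.1% of all probe sets changed (6.46% higher and 8.60% lower). Pdha1, Dlat, Dld and Pdk4 fell in both sexes, while Pdk1 and Pdk2 did not pass the test in either. Of the 8 subunit probe sets, 6 fell and 1 rose in males, and 5 fell and 1 rose in females. Of the 4 kinase probe sets, 1 fell in each sex, that of Pdk4. The median difference over the 12 was -0.45 in males and -0.33 in females, beside -0.03 in each sex over all probe sets tested. TAC and sham arrays did not overlap for 8 of 12 in males, where 19.6% of all probe sets did not, and for 7 of 12 in females, where 19.9% did not. Without male TAC array 5, 7 of 12 changed in males. Averaged over the sexes, 9 of 12 changed, 8 of them lower, where 28.7% of all probe sets changed and 15.8% were lower. The Pdk3 probe set alone was below the signal limit.

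**Figure D1:**
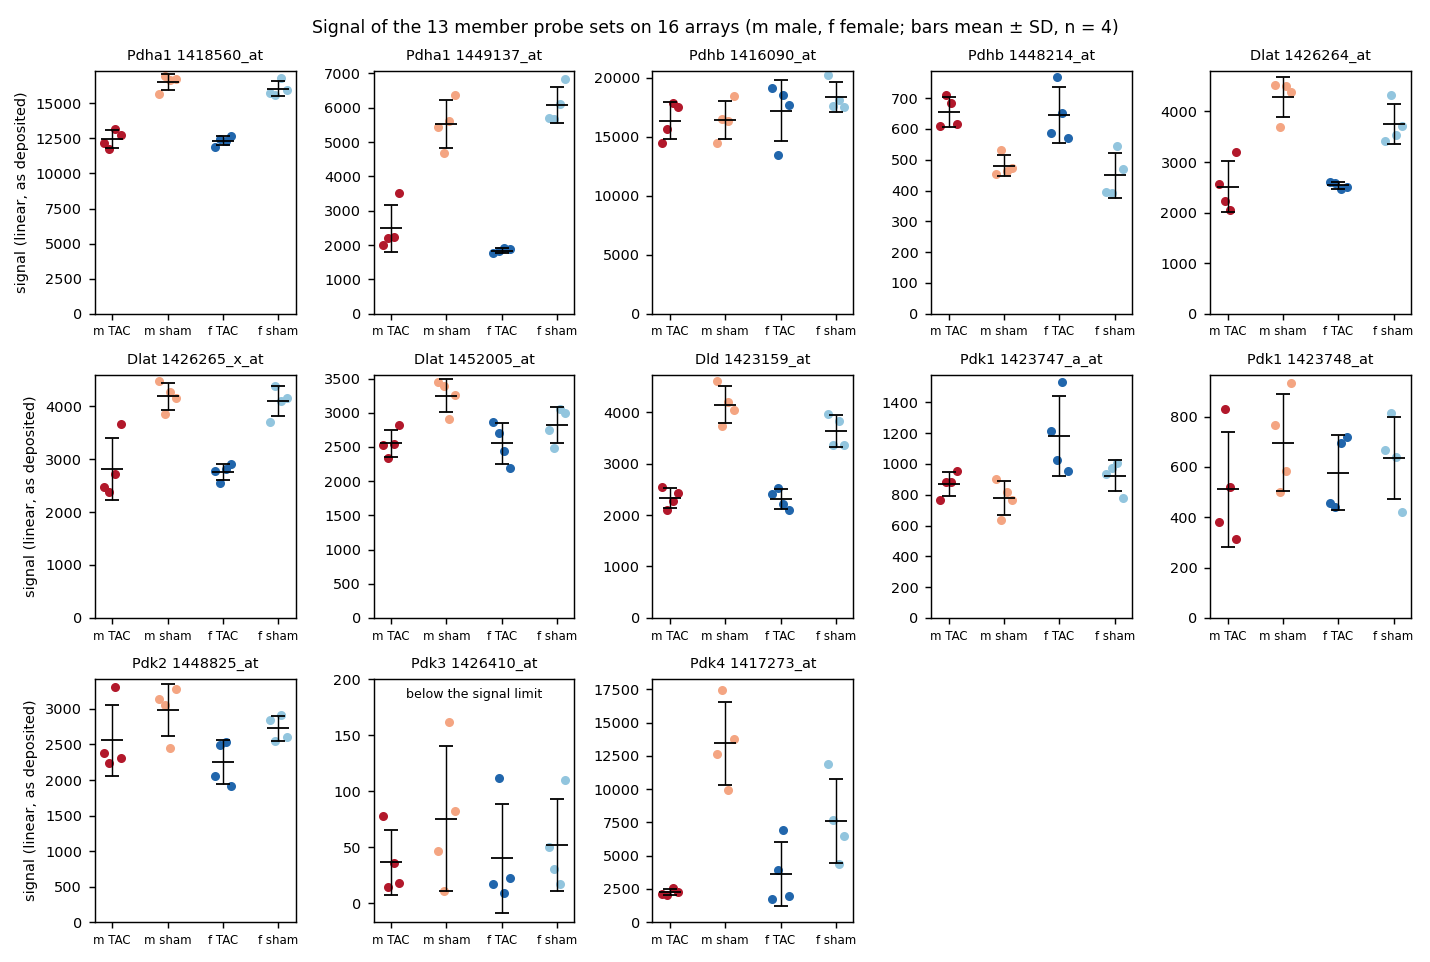
Deposited signal (linear scale) of the 13 member probe sets on each of the 16 arrays, 1 point per array, with the mean and SD of each group of 4 as bars. Pdha1, Dld and 2 of the 3 Dlat probe sets lie lower on every TAC array than on every sham array of the same sex, while Pdk4 in females spans 1719.8 to 6901 with TAC and 4379.9 to 11900.3 in shams.

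Pdha1 encodes the alpha subunit, the target of the kinases, and both of its probe sets fell in both sexes. Probe set 1418560_at had signals of 12188, 11720.1, 13169 and 12769.7 in male TAC mice and 15667, 16919.8, 16702 and 16726 in male shams. In females it had 11884, 12440.4, 12351 and 12663 with TAC and 15763, 15609, 16832 and 15953 in shams. Every TAC array was below every sham array of its sex. The difference was -0.41 in males (SE 0.073, adjusted p = 0.000605) and -0.38 in females (SE 0.073, adjusted p = 0.00143), a signal 1.33-fold and 1.30-fold lower.

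The second Pdha1 probe set, 1449137_at, moved further. It had 2007, 2217, 2221 and 3507 in male TAC mice and 5429.7, 4679.5, 5616 and 6371 in male shams. In females the signals were 1765, 1814, 1906 and 1870.4 with TAC and 5698, 5681, 6105 and 6827 in shams. The groups lay apart in both sexes, and the highest male TAC value came from array 5, the one with the high 18S signal. The difference was -1.17 in males (SE 0.14, adjusted p = 9.87e-06) and -1.71 in females (SE 0.14, adjusted p = 2.31e-07), and -1.35 in males without array 5. The log2 ratio of this probe set to the other within each array differed between TAC and sham by -0.77 in males and -1.33 in females. The exact 2-sided permutation p was 0.0286 each, the smallest that 4 against 4 arrays allow, and 0.0571 after adjustment over the 24 ratio tests made. The files do not tell which part of the transcript each probe set reads, and deviations from the group means correlated between them at 0.26 over 16 arrays.

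Pdhb, the beta subunit, had a probe set that rose, 1448214_at, and another, 1416090_at, that did not pass the test. The within-array log2 ratio of 1448214_at to 1416090_at differed between TAC and sham by 0.44 in males and 0.61 in females. The exact permutation p was 0.0286 each, and 0.0571 after adjustment. Probe set 1416090_at had 14453, 15654, 17889 and 17471 in male TAC mice and 14482, 16462, 16360.2 and 18426 in male shams. Female values were 19155, 13403, 18549.5 and 17699 with TAC and 20251, 17618, 18116 and 17549 in shams. The groups overlapped in both sexes. The difference was -0.01 in males, with a 95% interval of -0.24 to 0.23 (adjusted p = 0.98), and -0.11 in females, with an interval of -0.34 to 0.12 (adjusted p = 0.584).

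The other Pdhb probe set, 1448214_at, was the only member probe set to rise. It had 610.4, 710.3, 683.6 and 616.6 in male TAC mice and 453.8, 530.4, 463.5 and 473.4 in male shams. In females it had 588.6, 770, 650.4 and 570.2 with TAC and 394.4, 391.5, 545.3 and 470.8 in shams. All TAC arrays were above all sham arrays of their sex. The rise was 0.44 in males (SE 0.14, adjusted p = 0.041) and 0.51 in females (SE 0.14, adjusted p = 0.0212). These calls were close to the threshold: leaving out any one of male TAC arrays 1, 2, 4 and 5 or male sham arrays 1, 3 and 4 left the male difference at 0.40 to 0.47 with adjusted p above 0.05 (0.0506 to 0.109), and leaving out female TAC array 2 or female sham array 1 or 2 left the female difference at 0.42 to 0.45 (adjusted p = 0.0654 to 0.0781).

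Dlat, the acetyltransferase of the core, fell on all 3 of its probe sets in males and on 2 in females. Probe set 1426264_at had 2570.2, 2224, 2061 and 3191 in male TAC mice and 4524, 3690.2, 4510.4 and 4389.9 in male shams. Female signals were 2607, 2589, 2465 and 2503 with TAC and 3426, 4331, 3545 and 3704 in shams. The groups lay apart in both sexes, with male TAC array 5 again the highest of its group. The difference was -0.78 in males (SE 0.12, adjusted p = 0.000170) and -0.55 in females (SE 0.12, adjusted p = 0.00410).

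Probe set 1426265_x_at tracked it, with group means of 2810 ± 584.8 in male TAC mice and 4190.1 ± 260.6 in male shams, and of 2767 ± 150.2 in female TAC mice and 4094 ± 282.8 in female shams (SD, n = 4 each). Its groups also lay apart, and it fell by 0.59 in males (adjusted p = 0.00139) and by 0.56 in females (adjusted p = 0.00261). The suffix of this probe set's name marks probes that may bind other transcripts as well. Probe set 1452005_at had 2339 to 2817 in male TAC mice and 2906 to 3444 in male shams, which did not overlap, and 2192 to 2868 in female TAC mice and 2483 to 3050.2 in female shams, which did. It fell by 0.34 in males (SE 0.11, adjusted p = 0.0323), a call lost when any one of male TAC arrays 1, 2 and 4 or male sham arrays 1, 2 and 4 was left out (-0.34 to -0.30, adjusted p = 0.0573 to 0.0982). The female difference was -0.15, with an interval of -0.37 to 0.08 (adjusted p = 0.412). The within-array log2 ratio of 1452005_at to 1426265_x_at differed by 0.25 in males (exact permutation p = 0.0857, adjusted 0.137) and 0.42 in females (0.0286, adjusted 0.0571). To 1426264_at it differed by 0.44 in males (0.0571, adjusted 0.0980) and 0.41 in females (0.0286, adjusted 0.0571).

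Dld, which regenerates the lipoyl arm for this and the related complexes, had 2540.1, 2091, 2272 and 2438 in male TAC mice and 4600.5, 3731, 4195 and 4048 in male shams. In females it had 2409, 2532, 2221 and 2091 with TAC and 3972, 3368, 3823 and 3359 in shams. The highest TAC value was below the lowest sham value in each sex. Dld fell by 0.82 in males (SE 0.10, adjusted p = 1.77e-05) and by 0.65 in females (SE 0.10, adjusted p = 0.000287), a signal 1.77-fold and 1.56-fold lower.

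**Figure D2:**
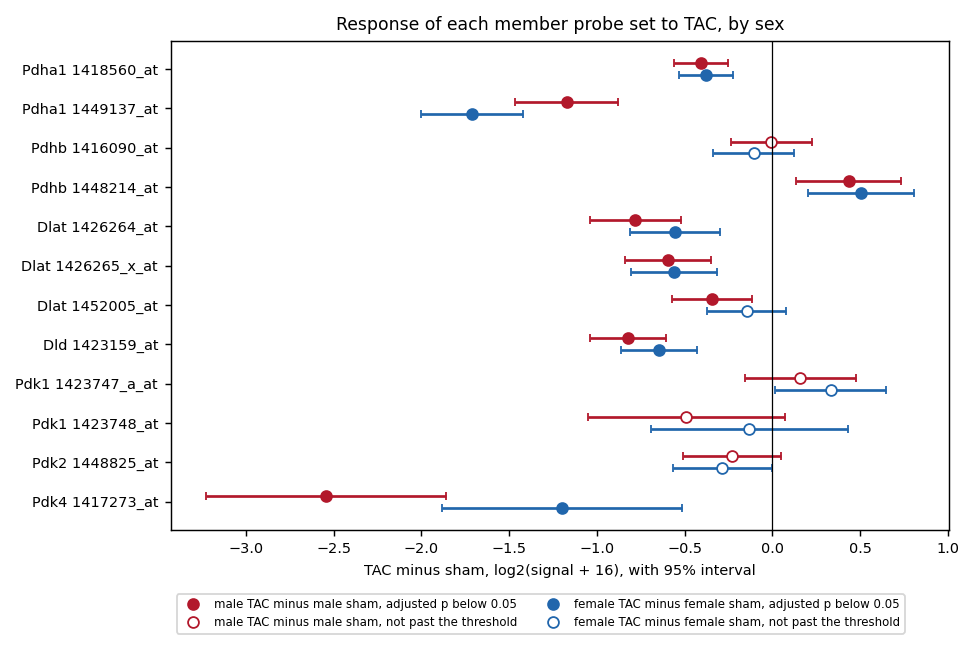
TAC minus sham difference of log2(signal + 16) with its 95% interval for the 12 member probe sets that passed the signal limit, males above females in each pair. Filled points have an adjusted p below 0.05. Pdk4 and Pdha1 1449137_at lie farthest to the left, and Pdhb 1448214_at is the only filled point to the right of 0.

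Pdk4, the kinase tied to fasting and lipid use, had the lowest difference of all members in males. It had 2144, 2049.9, 2534 and 2276 in male TAC mice and 12642, 17466, 9898 and 13751 in male shams. Females had 1719.8, 3924, 6901 and 1965 with TAC and 11900.3, 7673, 4379.9 and 6437 in shams. The male groups lay far apart and the 4 male TAC values close together, while in females TAC array 3 was above sham arrays 3 and 4, so the groups overlapped. Pdk4 fell by 2.54 in males (SE 0.33, adjusted p = 2.18e-05), a signal 5.83-fold lower. It fell by 1.20 in females (SE 0.33, adjusted p = 0.0166), 2.30-fold lower (interval of the difference -1.88 to -0.52).

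The female Pdk4 call depended on single arrays. The difference was -0.92 without female TAC array 1 (adjusted p = 0.0645), -0.98 without female TAC array 5 (adjusted p = 0.0647) and -0.95 without female sham array 1 (adjusted p = 0.0704). Relative to the kinase Pdk2 on the same array, Pdk4 differed between TAC and sham by -2.32 in males (exact permutation p = 0.0286, adjusted 0.0571) and by -0.91 in females (exact permutation p = 0.143, adjusted 0.181). Relative to the subunit Dld, the difference was -1.72 in males (exact permutation p = 0.0286, adjusted 0.0571) and -0.55 in females (exact permutation p = 0.371, adjusted 0.388). Relative to Pdk1, Pdha1, Pdhb and Dlat, on the brightest probe set of each, it was -2.70 to -1.95 in males (adjusted 0.0571 each). In females it was -1.53 to -0.64 (adjusted 0.0980 to 0.312).

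Pdk2, the kinase found in most tissues, had 2383, 2243, 3303 and 2308 in male TAC mice and 3143, 3058, 2449.7 and 3279.8 in male shams. In females the values were 2062, 2488, 2536 and 1909 with TAC and 2848, 2544, 2914 and 2601 in shams. The groups overlapped in males and lay just apart in females. The difference was -0.23 in males (interval -0.51 to 0.05, adjusted p = 0.268) and -0.28 in females (interval -0.56 to -0.00473, adjusted p = 0.171). Averaged over the sexes it was -0.26 (adjusted p = 0.0477), a call that 19 of 28 alternatives ended. It was lost on leaving out any one of female TAC arrays 1 and 5, female sham arrays 1 to 4, male TAC arrays 1, 2 and 5 and male sham arrays 1, 2 and 4 (-0.27 to -0.22, adjusted p = 0.0513 to 0.103).

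Pdk1, a kinase known as a target of hypoxia signalling, was read by probe sets that differed in direction. Probe set 1423747_a_at had 763.8 to 953.5 in male TAC mice and 638.3 to 902.6 in male shams, and 951.8 to 1535 in female TAC mice and 779.5 to 1009 in female shams. The groups overlapped, and the differences were 0.16 in males (adjusted p = 0.532) and 0.33 in females (adjusted p = 0.158). Probe set 1423748_at had 311.8 to 829 in male TAC mice and 500.9 to 933.2 in male shams, and 438.9 to 720.7 in female TAC mice and 420.6 to 812.9 in female shams, with differences of -0.49 (adjusted p = 0.234) and -0.13 (adjusted p = 0.806). Neither probe set passed the test in either sex. Pdk3, a kinase with a narrow tissue range, was dim on all 16 arrays, at 8.9 to 161.6, and only a fit without the limit, over 22626 probe sets, gave it a value: -0.63 in males (adjusted p = 0.624) and -0.42 in females (adjusted p = 0.770).

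No member passed the test in any comparison of the sexes. The difference between the TAC responses of females and males passed for 0 of 12 members, and for 0% of all 13576 probe sets. At an unadjusted p below 0.05, 2 of 12 passed, where 6.61% of all probe sets did. Taken as the female minus the male response, they were Pdk4, at 1.35 (SE 0.46, interval 0.38 to 2.31, adjusted p = 0.648), and Pdha1 1449137_at, at -0.54 (interval -0.95 to -0.13, adjusted p = 0.664). For Dld the difference of responses was 0.18, with an interval of -0.13 to 0.48, and for Pdha1 1418560_at it was 0.03, with an interval of -0.19 to 0.24.

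Between female and male shams, 0 of 12 members passed, where 0.309% of all probe sets did. Pdk4 averaged 7598 ± 3174 in female shams and 13439 ± 3135 in male shams (SD, n = 4 each), a difference of -0.88 (interval -1.57 to -0.20, adjusted p = 0.331), with overlapping groups. Between female and male TAC mice, 0 of 12 passed, where 0.0663% of all probe sets did. There Pdk4 averaged 3628 ± 2395 in females and 2251 ± 210.1 in males (SD, n = 4 each), a difference of 0.46 (interval -0.22 to 1.14, adjusted p = 0.863). Ordered by mean, Pdk4 was lowest in male TAC mice, then in female TAC mice, female shams and male shams, and in that order neither the first and second nor the last pair passed the test after adjustment. Pdha1 1449137_at was lower on every female TAC array than on every male TAC array, at -0.40 (adjusted p = 0.708), and 3.43% of all probe sets lay apart between these groups.

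**Figure D3:**
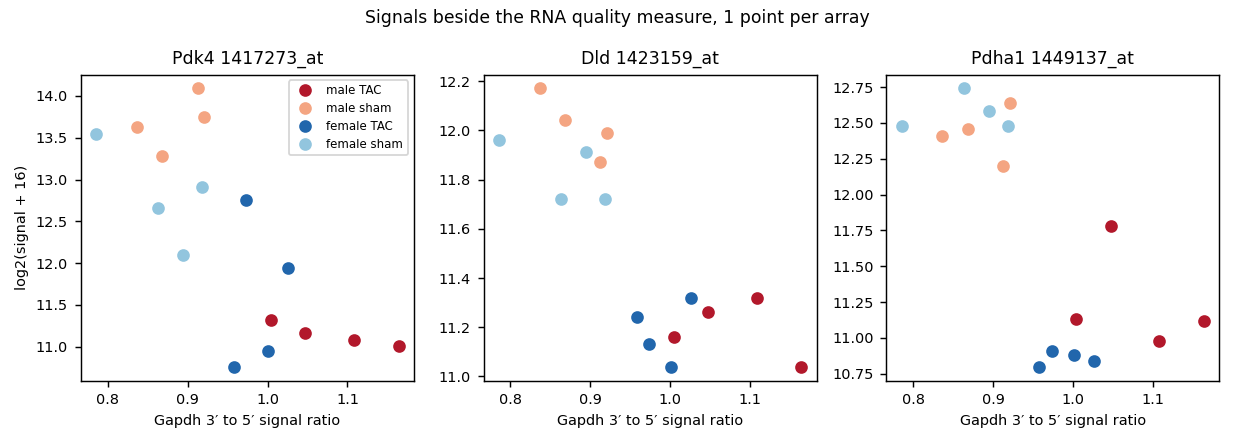
log2(signal + 16) of Pdk4, Dld and Pdha1 1449137_at against the Gapdh 3′ to 5′ signal ratio, 1 point per array. Every TAC array has a higher ratio than every sham array. The ratio runs from 1.004 to 1.16 in male TAC mice and from 0.837 to 0.921 in male shams. Its part and that of the operation cannot be told apart.

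Fewer members were called when an RNA measure described above was added to the fit. With the log2 Gapdh ratio as a covariate, the Pdk4 difference was -2.13 in males (adjusted p = 0.0581) and -0.92 in females (adjusted p = 0.318), and that of Dld -0.62 (adjusted p = 0.0686) and -0.51 (adjusted p = 0.0537). Only Pdha1 1449137_at kept its call in both sexes under that covariate, with -1.07 in males (adjusted p = 0.0311) and -1.64 in females (adjusted p = 0.000189). With the 18S signal as a covariate instead, Pdk4, Dld and both Pdha1 probe sets kept their calls in both sexes, Pdha1 1449137_at at -0.68 in males. The male differences of Dlat were then -0.45 on 1426264_at (adjusted p = 0.0853) and -0.22 on 1426265_x_at (adjusted p = 0.360), and 4 of 12 members were called in males. In females Dlat 1426264_at had -0.36 (adjusted p = 0.0674). Pdhb 1448214_at, higher with TAC, had 0.47 in females (adjusted p = 0.0887) and 0.37 in males (adjusted p = 0.338) with that covariate. Since the Gapdh ratio separated the operations completely, its part in these differences and that of the operation cannot be told apart.

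Related genes were described from lists chosen around the complex, with 1 probe set per gene. Averaged over the sexes, 13.4% of all 8272 genes rose and 13.1% fell, with a median difference of -0.01. Of 9 measured genes of pyruvate supply and its other fates, 1 rose and 4 fell (median -0.21). The 4 were 2 without male TAC array 1 or male sham array 2, and 0 with the 18S or the Gapdh covariate. Mpc1, a subunit of the carrier that brings pyruvate into the mitochondrion, fell by 0.48 (adjusted p = 6.92e-05), with 7045 ± 1087 in male TAC mice and 10069.9 ± 899.6 in male shams, and 7478 ± 417.9 in female TAC mice and 10174 ± 1008 in female shams (SD, n = 4 each). Ldhb, a lactate dehydrogenase subunit, fell by 0.28 (adjusted p = 0.00335), and Me1, a malic enzyme of the cytosol, fell by 0.29 (adjusted p = 0.0298). The other probe sets of Ldhb, 3 in number, gave -0.32 (adjusted p = 0.000827), -0.24 (adjusted p = 0.0233) and -0.12 (adjusted p = 0.361), and the other of Me1 gave -0.57 (adjusted p = 1.58e-05). Slc16a1, a carrier of lactate and pyruvate across the cell membrane, rose by 0.21 (adjusted p = 0.0125). Also lower was Gpt2, an alanine aminotransferase of the mitochondrion, at -0.69 (adjusted p = 0.0395), named after its value was seen.

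Of 6 measured genes around the other 2-oxoacid dehydrogenases, 0 rose and 4 fell (median -0.37). These were Bckdhb (-0.58, adjusted p = 0.000531) and Dbt (-0.66, adjusted p = 0.000771), subunits of the branched-chain complex, and Dlst (-0.33, adjusted p = 0.00167) and Ogdh (-0.42, adjusted p = 0.00261), subunits of the 2-oxoglutarate complex. Bckdha had -0.07 (adjusted p = 0.61) and the kinase Bckdk 0.25 (adjusted p = 0.0973). Bckdk had 0.43 in males (adjusted p = 0.0561) and 0.06 in females (adjusted p = 0.854). The list also named glycine cleavage genes, none of which was among the 6. By sex, 4 of 6 fell in males, where 7.77% of all genes fell, and 1 of 6 in females, where 6.69% did. That one was Bckdhb, at -0.49 (adjusted p = 0.0431), while Ogdh had -0.40 (adjusted p = 0.0536) and Dbt -0.54 (adjusted p = 0.0564). Dlst fell by 0.63 in males (adjusted p = 0.00024) and had -0.03 in females (adjusted p = 0.878). The female count was 3 without female TAC array 2, and 0 without female TAC array 1, 3 or 5 or without female sham array 2, 3 or 4. For the difference between the female and male responses, 0 of 6 passed, with Dlst at 0.59 (adjusted p = 0.391). Of 7 genes that supply the lipoate and thiamine cofactors, 1 fell, the iron-sulphur scaffold Nfu1 (-0.28, adjusted p = 0.0256), whose other probe set gave 0.15 (adjusted p = 0.227). That count was 0 without male TAC array 1, female TAC array 5, male sham array 3 or 4, or female sham array 2. The mitochondrial deacetylase Sirt3 was the only gene measured among other regulators of the complex, with a difference of 0.22 (adjusted p = 0.259).

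**Figure D4:**
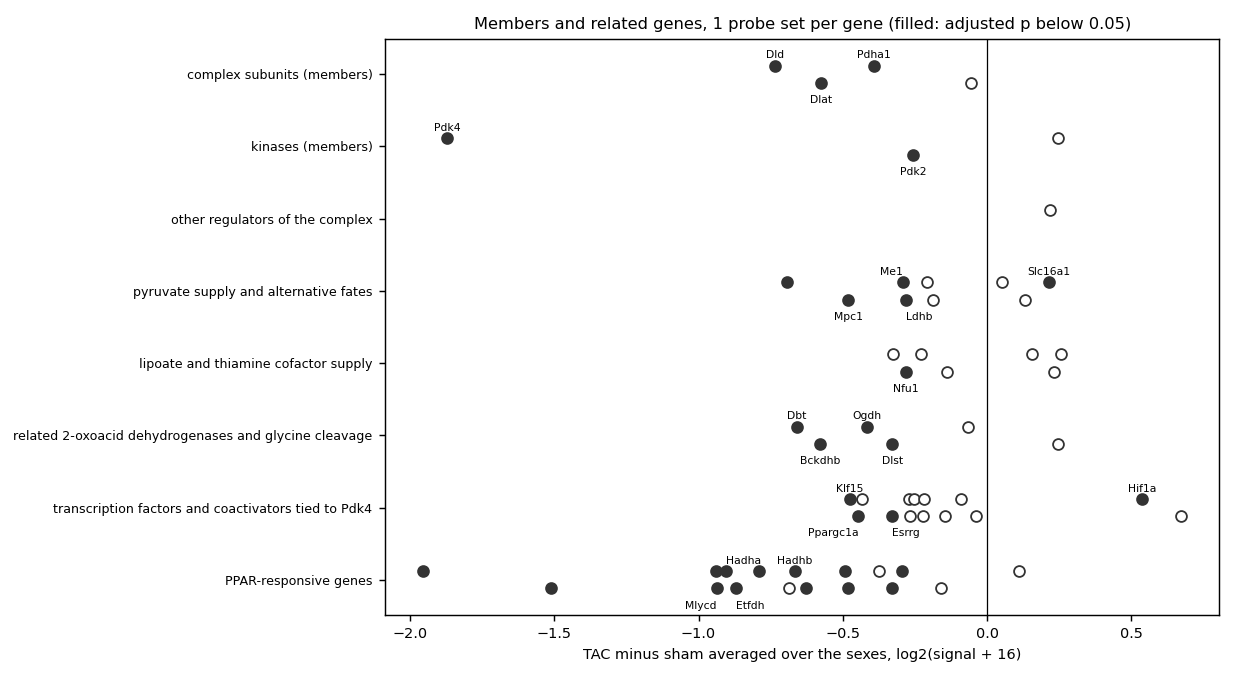
TAC minus sham difference of log2(signal + 16), averaged over the sexes, for member genes and 6 lists of related genes, 1 probe set per gene, filled where the adjusted p was below 0.05. Names are given to filled points only, for members and for up to 4 genes per list with the smallest p. Most filled points lie left of 0 in every list that has more than 1, and Slc16a1 and Hif1a lie to the right.

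Pdk4 is a textbook target of the PPAR receptors, and 17 genes known to respond to them were measured beside it. Of these, 13 fell and 0 rose averaged over the sexes (median -0.67), where 13.1% of all genes fell and 13.4% rose. In each sex 11 fell, where 7.77% of all genes fell in males and 6.69% in females. Etfdh, which hands electrons from fat oxidation to the respiratory chain, fell by 0.87 (adjusted p = 3.84e-09), with 4995 ± 320 in male TAC mice and 9746 ± 521.6 in male shams, and 5178 ± 338.2 in female TAC mice and 8889 ± 392.3 in female shams (SD, n = 4 each). Hadha, a subunit of the trifunctional protein of fat oxidation, fell by 0.90 (adjusted p = 1.83e-07), and its partner Hadhb by 0.67 (adjusted p = 4.08e-08) on its brighter probe set, while the other gave -0.16 (adjusted p = 0.342). Mlycd, the malonyl-CoA decarboxylase, fell by 0.94 (adjusted p = 2.24e-07).

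Of 14 transcription factors and coactivators tied to Pdk4, 3 fell and 1 rose averaged over the sexes (median -0.24). Over all 8272 genes, 13.1% fell and 13.4% rose in that average. The 3 were the coactivator Ppargc1a (-0.45, adjusted p = 0.0127), the orphan receptor Esrrg (-0.33, adjusted p = 0.0363) and the glucocorticoid-induced factor Klf15 (-0.47, adjusted p = 0.0412). Their count was 1 without male TAC array 2 or 5, female TAC array 5, male sham array 1, 2 or 3, or female sham array 3, and 0 with the 18S or the Gapdh covariate. Ppargc1a had 4 other probe sets, with averaged differences of -1.07 to -0.03, of which 1 was called. The called one also fell in males (-1.195, adjusted p = 0.00297) and in females (-0.95, adjusted p = 0.0168). Another fell in males (-0.58, adjusted p = 0.0475) and had 0.21 in females (adjusted p = 0.532). The rest passed in neither sex. Hif1a, the oxygen-regulated factor, rose by 0.54 (adjusted p = 0.0144) on its brighter probe set, and the other gave 0.10 (adjusted p = 0.645). The count that rose was 2 without female sham array 4, and 0 at the lowest with all arrays kept. Hif1a rose by 0.68 in males (adjusted p = 0.0407) and had 0.40 in females (adjusted p = 0.2645). Ppara itself had -0.27 (adjusted p = 0.264). By sex, on the 1 probe set used per gene, 1 of 14 fell in males, Ppargc1a (-0.57, adjusted p = 0.0338), where 7.77% of all genes fell. That Ppargc1a probe set had -0.32 in females (adjusted p = 0.2685). In females 1 of 14 fell, Nr3c1 (-0.39, adjusted p = 0.0499), named after its value was seen, where 6.69% of all genes fell. These counts of falls changed under 12 of 29 alternatives in males and 20 of 29 in females. Esrrg and Klf15 passed in neither sex alone.

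Genes whose signals ran most like the members were found by Pearson r over the 16 arrays among 8271 other genes, and are a description, since all arrays share the division by operation. For Pdk4 they were Pim3, Hsd17b11, Twsg1 and Slc25a11, at r of 0.90 each (0.895 for Slc25a11), and 0.47 to 0.61 once group means were removed. For Pdha1 1418560_at they were Hadhb, Ech1, Got1 and Hopx (0.96 to 0.97), and for Dld they were Ech1, Pygm, Idh3a and Etfdh (0.96 to 0.97). With group means removed, r with Pdha1 1418560_at was 0.51 for Hadhb, -0.01 for Ech1, 0.41 for Got1 and 0.66 for Hopx. With Dld it was then 0.54 for Ech1, 0.51 for Pygm, 0.75 for Idh3a and 0.33 for Etfdh. Pdk2 resembled other genes, Tsnaxip1, Nbn, Etv3 and Plekhg6, at 0.79 to 0.85, and at 0.65 to 0.75 with group means removed.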

How the data were processed

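Total RNA of 16 left ventricles was labelled and hybridised to 16 Affymetrix mouse 430A arrays, which the series text calls RAE 430A. The deposited values are signal intensities that the authors computed with GCOS, per the submitters' processing notes; its version and settings are not given in the sources used here. The 2% trimmed mean was 500.2 to 500.3 on every array, so the intensities had been scaled globally, and this was kept. The number of arrays limits the precision.

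The 64 control probe sets and the dimmest 40% of the rest by mean log2(signal + 16), below a signal of about 130.8, were left out. Over the remaining 13576, limma 3.58.1 in R 4.3.3 fitted 4 group means with an intensity trend, 2-sided, with Benjamini-Hochberg adjustment and a threshold of 0.05, and was tested on simulated data. Ratios between probe sets were tested by exact permutation, an analysis added after the data were seen. All member probe sets are described, with up to 4 genes per related list by smallest p averaged over the sexes, and for Pdk4, Pdk2, Pdha1 and Dld the 4 genes of highest r. Members, lists and tests were chosen with earlier results of these data known. Of the probe sets, 20380 had 1 symbol, 691 several and 1555 none. Replicate numbers in the sample titles were not used to pair the arrays in the main fit. Of 19 same-numbered pairs, 1 had deviations that correlated above 0.1 (-0.03 to 0.11). Pairs with different numbers were not compared, so a shared day of handling was not tested. A running number in the titles places all TAC arrays before all sham arrays. An order of handling, if it marks one, cannot be told apart from the operation. The alternatives changed the scaling, pseudocount, signal limit, intensity trend, array weights, probe sets per gene, groups fitted, replicate block and quality covariate, or left out 1 array each. Proteins and detection calls were not used here.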

Additional observations from a re-analysis of the deposited data

Results flagged for a closer look

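In 4 of the 52 groups of 4 arrays examined for the members, 1 array stood apart from the other 3, where chance alone marks about 1 group in 20. For Pdha1 1449137_at, male TAC array 5 had a signal of 3507, while the other 3 of its group had 2007 to 2221; its 18S signal was also the highest of that group, at 13.16 on the log2 scale against at most 9.57. For Dlat 1426264_at, male sham array 2 had 3690.2, while the rest of that group had 4389.9 to 4524. For Pdk2, male TAC array 4 had 3303, against 2243 to 2383. For Pdk3, which was below the signal limit, female TAC array 2 had 112.2, against 8.9 to 22.6. Why these arrays stood apart was not tested.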

How the results depend on the processing

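Of 2034 member differences recomputed under the alternatives, 1959 stayed on their side of the threshold, 63 of them uncalled differences that changed sign, 74 lost a call, 1 gained one (Pdk1 1423747_a_at averaged over the sexes, 0.33 and adjusted p = 0.0298 with median centring) and 0 called differences reversed. The 8 members called in males were 4 with 1 probe set per gene, 4 with the 18S covariate and 1 with the Gapdh covariate, and 6 to 8 with 1 array left out. The 7 called in females were 4 with 1 probe set per gene and 1 with the Gapdh covariate, and 5 to 7 with 1 array left out. The 9 called averaged over the sexes were 4 with 1 probe set per gene, 5 with the 18S covariate and 4 with the Gapdh covariate, and 8 to 9 with 1 array left out. In the 3 comparisons of the sexes the count was 0 under every alternative run. With 1 probe set per gene fewer probe sets are counted by construction; the cause of the other changes was not tested. With the replicate block, the counts of called members were 7 for males, 6 for females and 7 for the average of the sexes, and Pdk4 in females stood at -1.10 (adjusted p = 0.0618), with only the 2 female groups fitted at -1.20 (adjusted p = 0.0503). Over all probe sets, the Gapdh covariate left 398 calls of 2422 for males, 498 of 2045 for females and 640 of 3890 for the average; the 18S covariate left 997 in males and 1917 averaged; 1 probe set per gene left 1265, 1039 and 2138. The difference of responses gave 0 calls, and 1 with a pseudocount of 64, 2 with a limit on the dimmest 60%, with 1 probe set per gene or with the replicate block, and 0 to 11 with 1 array left out, 11 without male TAC array 5. Between female and male shams, 42 calls became 21 without the intensity trend, 88 with only these groups, 65 with the replicate block, 26 with the 18S covariate and 17 to 69 with 1 array left out, and between female and male TAC mice 9 became 5 with the 60% limit, 2 with 1 probe set per gene, 3 with only these groups and 4 with the Gapdh covariate. Median centring moved the share of higher calls to 54.7% in males, against 45.2% as deposited, to 64.4% in females, against 42.9%, and to 60.4% averaged, against 44.9%. Of the related lists, the PPAR-responsive genes kept 4 falls in males, 5 in females and 6 averaged under the Gapdh covariate. Signals near the limit and the 4 arrays per group limit what small differences could be seen.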
